A study of Mus musculus with 30 samples.

Results

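The 38 genes described here encode the machinery of mitosis in mouse cells, and were taken by name from the 48709 genes of an RNA-seq table of differentiating C2C12 myoblasts. All 38 were in the table and passed the filter on low values, which 12946 genes passed. They comprise the CDK1-cyclin engine (6 genes), the kinases Plk1 and Aurka (2), the chromosomal passenger complex (3), the spindle checkpoint (4), the centromere and kinetochore (5), spindle motors and microtubule proteins (5), chromosome structure (4), anaphase and mitotic exit (3), and the central spindle with cytokinesis (6). C2C12 is an established mouse myoblast line that stops dividing and fuses into myotubes when serum is reduced. Cells grown in high-serum medium were moved to a low-serum differentiation medium with horse serum, and potassium chromate, a source of hexavalent chromium, was present at 5 or 2 µM or was left out. Libraries were made at 5 µM on days 1, 2 and 4, at 2 µM on days 1, 2 and 4, without chromate on days 1, 2 and 4, and from cells on day 0 that had no chromate. Each of these 10 groups held 3 libraries, 30 in all, which the labels call biological replicates without saying what was repeated, so p-values measure the spread between these samples.

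A cell enters mitosis when the kinase CDK1, bound to cyclin B, becomes active. FOXM1 and the MuvB complex drive transcription of much of the programme in late cell cycle. The chromosomes then condense, attach through kinetochores to spindle microtubules, and are held by a checkpoint until the anaphase-promoting complex releases them. Myoblasts leave this cycle for good before they fuse, so the transcripts of these genes are a common readout of how many cells in a culture still divide. In a bulk library, fewer dividing cells and less RNA of these genes per cell cannot be told apart.

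Values are the CPM deposited by the authors, which carried a further scaling per library and are called scaled CPM below. Recovered depth was 18.5 to 26.9 M reads (M, mega) per library, and 1 read was worth 0.038 to 0.0584 scaled CPM. Changes are differences of log2(scaled CPM + 1), which understate the change of low genes, with a standard error (SE) and a Benjamini-Hochberg adjusted p from limma over all 12946 genes. A gene was called at an adjusted p under 0.05. Levels are not compared between genes, since the values are not per length.

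A pair of day 1 libraries stood apart from the other 28. Replicate 1 of 2 µM had 82 genes at 5 or more scaled CPM that stayed under 1 in every other library, and replicate 3 of 5 µM had 185, against 0 in each of the other 28. In the 2 µM library, 7 of 8 adipocyte markers exceeded all other 28 libraries, with a summed level of 3140 scaled CPM against at most 1.26. In the 5 µM library this held for 6 of 6 lung epithelium markers, 6 of 8 myeloid markers and 5 of 6 B and plasma cell markers, with summed levels of 421, 203 and 110 scaled CPM against at most 13.1, 4.9 and 1.88. The muscle markers Myod1 and Des were read in every library, with 68.9 and 1029 scaled CPM in that 5 µM library and 84.3 and 1298 in that 2 µM library, against 57.1 to 199 and 666 to 3507 in the other 28. Day 1 results are therefore given from all 30 libraries and from the 28. In the 5 µM library that stood apart, 31 of the 38 genes had their highest value of the 3 replicates. Among them were Mki67, the proliferation antigen that coats mitotic chromosomes, at 91.8 scaled CPM against 8.36 and 7.77 in replicates 1 and 2, and Top2a at 149 against 57.5 and 64.3. The part of the other cell types' transcripts in these values was not tested.

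The promoters of these genes are shown because the members moved together through most of the experiment. Windows from 250 bases before to 50 after the annotated start were taken from RefSeq (build GRCm38.p6) and matched 32 of the 38 genes, on 14 chromosomes. Aurkb, Ccna2, Cdc25c, Foxm1, Kif20a and Tpx2 had no entry. The 250 bases before the start were searched on both strands for CCAAT, the box bound by NF-Y, and for TTTGAA or TTCGAA, the 2 core forms of the cell cycle homology region bound by MuvB. TTCGAA reads the same on both strands, and matches of different motifs were counted separately. CCAAT was present in 25 of 32 members (78.1%), against 37.5% of all 27025 genes with a window. TTTGAA or TTCGAA was present in 14 of 32 (43.8%), against 19.6% of all genes, and 13 of 32 (40.6%) held both kinds, against 7.0% of all genes. In the last 120 bases before the start, CCAAT was found in 23 members (71.9%) against 24.2% of all genes, and TTTGAA or TTCGAA in 11 (34.4%) against 8.8%. The 8-letter E2F form GGCGGGAA was found in 0 of 32 members and in 2.1% of all genes. These are matches of letters, not shown binding sites. The last 120 bases before the start are printed 5′ to 3′ on the gene's strand for Cdk1, Top2a, Ube2c, Kif11 and Cdc20, which hold both kinds of motif, and for Cenpa and Racgap1, whose values part from the rest below. They were picked after their values were seen, and capitals mark the motifs on either strand.
Cdk1, chr10:69352913-69353032, minus strand: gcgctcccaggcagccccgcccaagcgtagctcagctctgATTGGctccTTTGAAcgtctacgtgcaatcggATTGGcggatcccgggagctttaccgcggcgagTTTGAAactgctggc
Top2a, chr11:99024190-99024309, minus strand: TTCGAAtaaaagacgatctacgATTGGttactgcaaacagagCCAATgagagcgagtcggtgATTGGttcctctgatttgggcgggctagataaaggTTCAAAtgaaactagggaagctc
Ube2c, chr2:164769809-164769928, plus strand: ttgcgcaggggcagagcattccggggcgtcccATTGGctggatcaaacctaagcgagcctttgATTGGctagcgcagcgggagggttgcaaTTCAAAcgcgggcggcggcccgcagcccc
Kif11, chr19:37376262-37376381, plus strand: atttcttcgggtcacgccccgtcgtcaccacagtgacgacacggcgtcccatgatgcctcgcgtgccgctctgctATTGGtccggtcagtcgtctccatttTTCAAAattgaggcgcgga
Cdc20, chr4:118437344-118437463, minus strand: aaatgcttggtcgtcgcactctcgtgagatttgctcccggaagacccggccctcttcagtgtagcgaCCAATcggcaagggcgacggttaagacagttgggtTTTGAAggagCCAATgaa
Cenpa, chr5:30666766-30666885, plus strand: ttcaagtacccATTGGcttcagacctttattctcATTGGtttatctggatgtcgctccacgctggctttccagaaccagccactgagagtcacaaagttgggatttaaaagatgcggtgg
Racgap1, chr15:99651657-99651776, minus strand: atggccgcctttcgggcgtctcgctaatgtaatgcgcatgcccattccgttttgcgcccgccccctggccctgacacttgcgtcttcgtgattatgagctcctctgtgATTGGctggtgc

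In the Top2a window the motifs number 5 within these 120 bases, 3 CCAAT and 2 of the TTTGAA or TTCGAA kind, and the Cdk1 window holds 2 of each. The Cenpa and Racgap1 windows hold CCAAT (2 and 1) and no TTTGAA or TTCGAA in these letters. The change at 5 µM on day 4, described below, had a median log2 value of -2.40 in the 14 members with TTTGAA or TTCGAA and -2.52 in the 18 without. For CCAAT the day 4 medians were -2.44 in the 25 members with it and -2.62 in the 7 without. On day 2 the medians with and without were -2.27 and -2.43 for TTTGAA or TTCGAA, and -2.37 and -2.86 for CCAAT. These medians are a description with no test.

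Without chromate, the mitotic transcripts fell at the first sampling and stayed low. Summed over the 38 genes, day 1 control cells had 1128, 1504 and 1105 scaled CPM, day 2 cells 1465, 1425 and 1430, and day 4 cells 911, 877 and 897, against 5712, 5597 and 5701 on day 0. Every later library lay below the day 0 range, in each of the 38 genes (25.8%, 28.8% and 29.9% of all genes did so on days 1, 2 and 4), and replicate 2 on day 1 stood above its fellows, with the highest value of 35 of the 38 genes. All 38 were lower on day 1 than on day 0, where 22.7% of all genes tested were called lower, with a median log2 change of -2.11. All 38 were also lower on day 2 (background 24.3%) and on day 4 (background 29.5%), and 0 were higher on any of these days, where 25.4%, 27.6% and 30.3% of all genes were. The median gene stood at 22.4% of its day 0 mean on day 1, 24.5% on day 2 and 14.2% on day 4.

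**Figure D1:**
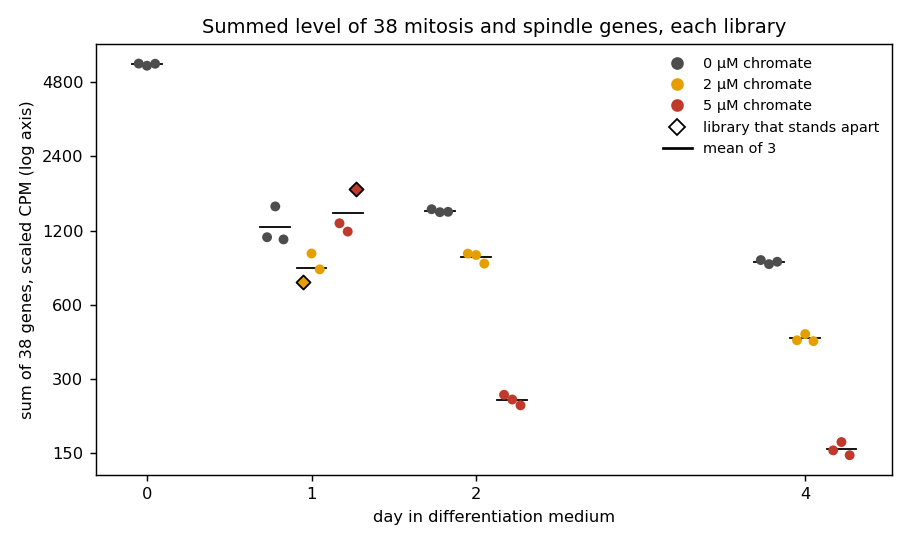
Sum of the 38 genes in scaled CPM (log axis) in each of the 30 libraries by day, with points coloured by chromate dose, a line at the mean of 3 and diamonds for the pair of libraries that stood apart. On day 4 the 5 µM libraries lie at 147 to 166, the 2 µM libraries at 427 to 456 and the control libraries at 877 to 911.

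The depth of the control fall differed from gene to gene. Aurka, the kinase that builds the spindle poles, had the largest one, with 13, 23.6 and 21.1 scaled CPM on day 1 against 124, 127 and 112 on day 0 (log2 change -2.63, SE 0.26, adjusted p = 2.1e-10). By day 4 it stood at 12, 16.4 and 9.89 scaled CPM, 10.5% of day 0. Nusap1, a microtubule-bundling protein of the spindle, had the smallest, with 22.6, 35.7 and 23.5 scaled CPM on day 1 against 84.9, 73.4 and 78.7 on day 0 (log2 change -1.53, SE 0.20, adjusted p = 6.4e-08). Neither gene's day 1 values overlapped those of day 0. From day 1 to day 2, Nusap1 was the only member called, at 41.4, 39 and 44 scaled CPM on day 2 against those day 1 values (log2 change 0.61, SE 0.20, adjusted p = 0.021), where 12.8% of all genes were higher and 9.42% lower. The call was lost when day 1 replicate 3, day 2 replicate 1 or day 2 replicate 3 was left out, with 0 members called then, and 3 members were called without day 1 replicate 2. With 28 libraries Top2a joined it (0.42, adjusted p = 0.014).

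From day 2 to day 4 the control cells fell again in 25 of 38 genes, against 14.1% of all genes tested, with a median log2 change of -0.69. The count was 19 to 20 with any 1 replicate of these groups left out, and 28 in the fit of 28 libraries. Cdk1, the kinase at the centre of mitotic entry, had 39.7, 40 and 31.4 scaled CPM on day 4 against 70.6, 76.5 and 73.6 on day 2, which was the largest change (-0.98, SE 0.15, adjusted p = 3.7e-06). The day 4 values lay wholly below those of day 2. Plk1, a kinase of entry and exit, had 16.1, 15 and 23.6 scaled CPM on day 4 against 23.3, 18.2 and 26.6 on day 2, and these overlapped (-0.31, SE 0.23, adjusted p = 0.36). Aurka, Aurkb, Mki67, Ndc80 and Racgap1 were also among the 13 that did not pass.

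**Figure D2:**
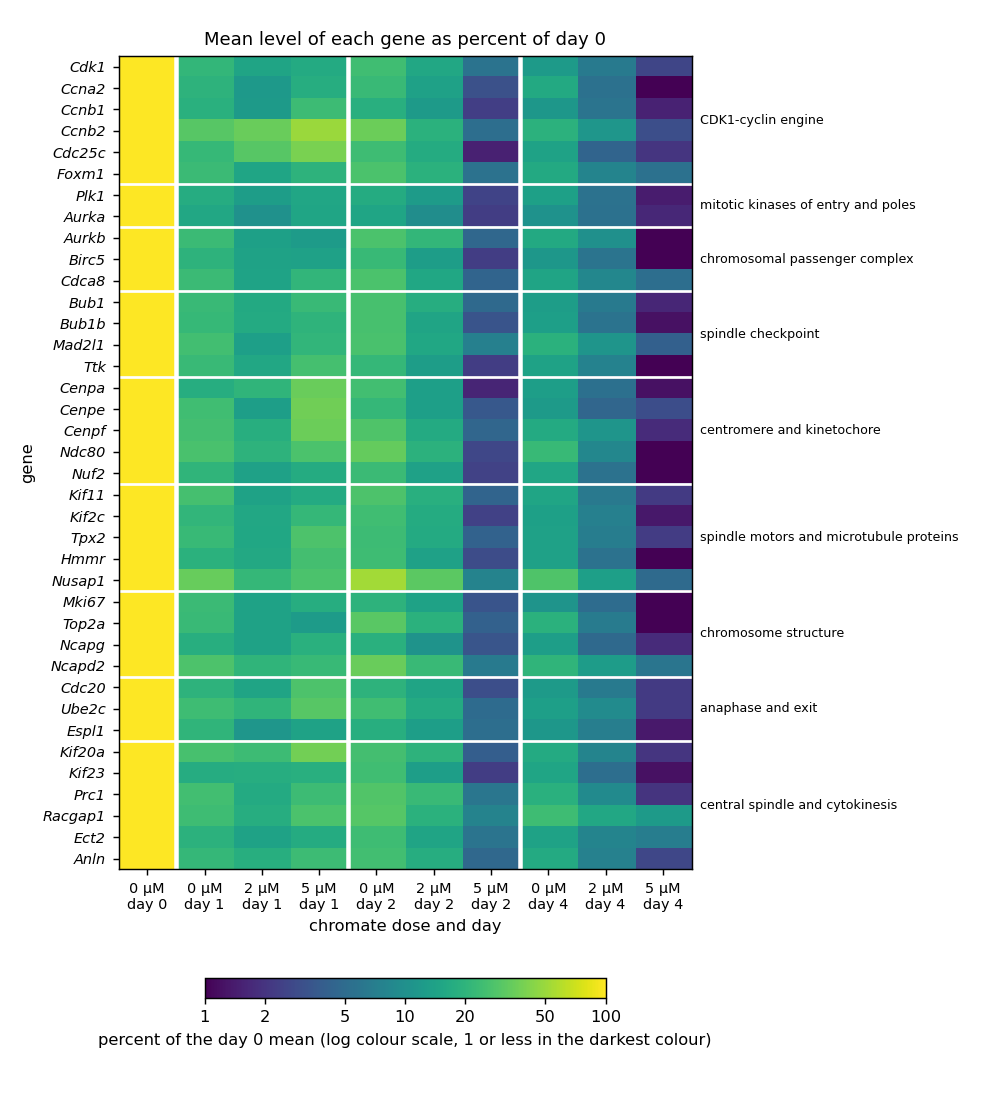
Mean level of each of the 38 genes (one per line, grouped by role) as percent of its own day 0 mean, on a log colour scale, for each dose and day, without the pair of libraries that stood apart. The median gene stands at 4.08% on day 2 and 1.75% on day 4 at 5 µM, against 24.5% and 14.2% in control cells of the same days.

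On day 1, the summed mitotic transcripts at 5 µM overlapped those of control cells. The sum over the 38 genes was 1285, 1189 and 1764 scaled CPM at 5 µM, the last from the library that stood apart, against 1128, 1504 and 1105 in control cells. The 5 µM mean was 113% of control with all 30 libraries and 99.3% with 28. By role, mean sums in 28 libraries ran from 66.9% of control for chromosome structure and 74.1% for the passenger complex to 127% for the centromere and kinetochore genes. With all 30 libraries these were 105%, 85.8% and 148%, so the chromosome structure value rested on 5 µM replicate 3. In 28 libraries the passenger complex overlapped control, at 43.63 to 56.3 scaled CPM against 54.7 to 86.2. The centromere and kinetochore sums also overlapped, at 84.72 to 106.1 against 64.67 to 86.32. Chromosome structure did not, at 109 to 126.4 against 161.5 to 198.6. A difference between roles was not tested. Of the 38 genes, 2 were higher (background 4.29%) and 0 were lower (background 9.41%). With 28 libraries 1 was higher (background 4.27%) and 2 were lower (background 8.79%), and the median log2 change was 0.12 with 30 libraries and -0.04 with 28. By edgeR on the recovered reads of 30 libraries, 6 were higher (background 4.67%) and 0 were lower (background 8.52%). At an unadjusted p under 0.05 in limma, 13 genes differed in either direction with 30 libraries and 9 with 28, where 25.9% of all genes did so in each set. The count of higher genes was 1 without control replicate 1 or 3 or 5 µM replicate 3, and 4 without control replicate 2 or 5 µM replicate 2.

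Cenpa was higher on day 1 in both sets of libraries. It encodes the histone variant that marks centromeres. It had 26.8, 36.3 and 33.5 scaled CPM at 5 µM against 21.1, 15 and 11.9 in control cells, and every 5 µM library lay above every control library. The log2 change was 0.99 (SE 0.21, adjusted p = 0.0011), and 0.96 with 28 libraries (SE 0.25, adjusted p = 0.0072). Cdc20, which activates the anaphase-promoting complex, had 47, 47.2 and 58.5 scaled CPM at 5 µM against 31, 46.8 and 23 in control cells. Its groups did not overlap, but the gap to control replicate 2 was small, and the log2 change of 0.64 (SE 0.20, adjusted p = 0.025) became 0.53 with 28 libraries (SE 0.22, adjusted p = 0.11).

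Top2a and Aurkb were lower on day 1 with 28 libraries and did not pass with 30. Top2a, the topoisomerase that untangles sister chromosomes, had 57.5 and 64.3 scaled CPM in replicates 1 and 2 at 5 µM against 109, 119 and 106 in control cells, with 149 in the 5 µM library that stood apart. The log2 change was -0.86 with 28 libraries (SE 0.14, adjusted p = 4.5e-05) and -0.43 with all 30 (SE 0.20, adjusted p = 0.18). Aurkb, the kinase of the chromosomal passenger complex, had 11 and 6.63 scaled CPM in replicates 1 and 2 at 5 µM, and 16.7 in replicate 3, against 13.4, 19.9 and 15.3 in control cells. Its log2 change was -0.83 with 28 libraries (SE 0.25, adjusted p = 0.024) and -0.54 with all 30 (adjusted p = 0.19). Both genes thus depended on replicate 3 of 5 µM, where their values were the highest of that group.

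The day 1 replicates parted without overlap in 8 genes that were higher at 5 µM, namely Cenpa, Cdc25c, Ccnb2, Cenpe, Cdc20, Kif20a, Cenpf and Tpx2, where 11.3% of all genes did so with 30 libraries and 17.2% with 28. In the other direction 0 genes parted with 30 libraries (background 16.0%), and Top2a, Aurkb, Kif11 and Nusap1 did so with 28 (background 21.2%). Ccnb1, the cyclin that activates CDK1, had 65.1, 57.4 and 67 scaled CPM at 5 µM against 35.8, 59.8 and 49 in control cells, and the groups overlapped (0.41, SE 0.15, adjusted p = 0.071). Mki67 was at 8.36, 7.77 and 91.8 scaled CPM at 5 µM against 11.3, 12.9 and 7.73 in control cells, and its sign turned from 0.78 with 30 libraries (adjusted p = 0.34) to -0.34 with 28 (adjusted p = 0.60). Values were within 0.30 of 0 on the log2 scale in both sets for Cdk1, Ccna2, Foxm1, Plk1, Aurka, Bub1b, Ndc80 and Ncapd2, of which none passed.

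By day 2, 5 µM chromate had lowered the whole set. The sum was 259, 248 and 234 scaled CPM at 5 µM against 1465, 1425 and 1430 in control cells, which is 17.2% of control, and the libraries were far from overlapping. All 38 genes were lower, each with every 5 µM library below every control library, where 13.4% of all genes tested were called lower, 10.2% were called higher and 22.8% parted in that way. The median log2 change was -2.41, against -0.01 over all genes tested, and it ran from -3.26 for Cenpa to -1.51 for Espl1. By role, the sum was between 10.3% of control for the centromere and kinetochore genes and 21.0% for the central spindle and cytokinesis genes. Each count was the same with 28 libraries.

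The engine of mitotic entry was at a low level in these cells. Ccnb1 had 4.99, 6.8 and 6.48 scaled CPM at 5 µM against 50.4, 42.8 and 49.5 in control cells (log2 change -2.78, SE 0.15, adjusted p = 9.1e-16). Cdk1 had 16.5, 14.6 and 21.2 scaled CPM at 5 µM against 70.6, 76.5 and 73.6 (-2.03, SE 0.15, adjusted p = 7.8e-13). Ccna2, the cyclin of S phase and early mitosis, had 10.1, 12.8 and 9.35 scaled CPM at 5 µM against 77.5, 84 and 72 in control cells (-2.76, SE 0.14, adjusted p = 1.9e-16). In all of these the treated libraries lay close together and well under control. Foxm1, the transcription factor of late cell cycle genes, was also lower, at 5.69, 8.64 and 5.16 scaled CPM at 5 µM against 29.5, 31.8 and 31.7 (-2.12, SE 0.19, adjusted p = 7.2e-11). Plk1 and Aurka had log2 changes of -2.44 and -2.42.

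Cenpa, which had been higher on day 1, had the largest log2 change on day 2, downward. It had 1.31, 1.04 and 2.03 scaled CPM at 5 µM against 20.8, 19.7 and 26.6 in control cells (log2 change -3.26, SE 0.21, adjusted p = 6.7e-14). Birc5, the survivin subunit of the passenger complex, had 4.55, 4.52 and 1.23 scaled CPM at 5 µM against 35.2, 32.6 and 31.3 (-3.06, SE 0.32, adjusted p = 4.2e-09). Ndc80, the kinetochore's microtubule hook, had 0.525, 1.88 and 1.94 scaled CPM at 5 µM against 16.6, 20.1 and 18.4 (-3.04, SE 0.25, adjusted p = 2.4e-11). The proteins of all of these act at the centromere or the kinetochore in mitosis. Kif23, a motor of the central spindle, was of like size at -3.02 (SE 0.26, adjusted p = 5.0e-11), with 3.94, 1.8 and 1.45 scaled CPM at 5 µM against 25.9, 26.4 and 23.7 in control cells.

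Other roles moved by similar amounts on day 2. The checkpoint kinase gene Bub1b had a log2 change of -2.85 and Mad2l1, which inhibits Cdc20, -1.74. The bipolar spindle motor gene Kif11 had -2.56 and Hmmr, a microtubule-binding protein gene, -2.80. Top2a had 24.3, 19.4 and 17.7 scaled CPM at 5 µM against 157, 153 and 139 in control cells (-2.82, SE 0.20, adjusted p = 8.1e-13), and these groups lay wide apart. The condensin subunit gene Ncapd2 had -2.31, Cdc20 -2.50, and Ube2c, the ubiquitin-conjugating enzyme of the anaphase-promoting complex, -2.20. Anln, which scaffolds the cleavage furrow, had -2.36. Espl1, the separase that cuts cohesin, had the smallest change, at 2.93, 4.36 and 3.66 scaled CPM at 5 µM against 11.1, 10.1 and 16 in control cells (-1.51, SE 0.30, adjusted p = 2.7e-04).

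The effect of 5 µM thus differed between day 1 and day 2, and this difference was itself tested in the same fit. It was called lower for 37 of 38 genes with 30 and with 28 libraries (background 2.76% and 2.59%), with a median of -2.65 and -2.50. Cenpa differed most, by -4.25 (SE 0.30, adjusted p = 6.6e-12). Espl1 was the exception, at -1.35 (SE 0.43, adjusted p = 0.058). Within 5 µM, all 38 genes were lower on day 2 than on day 1 (background 7.99%).

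**Figure D3:**
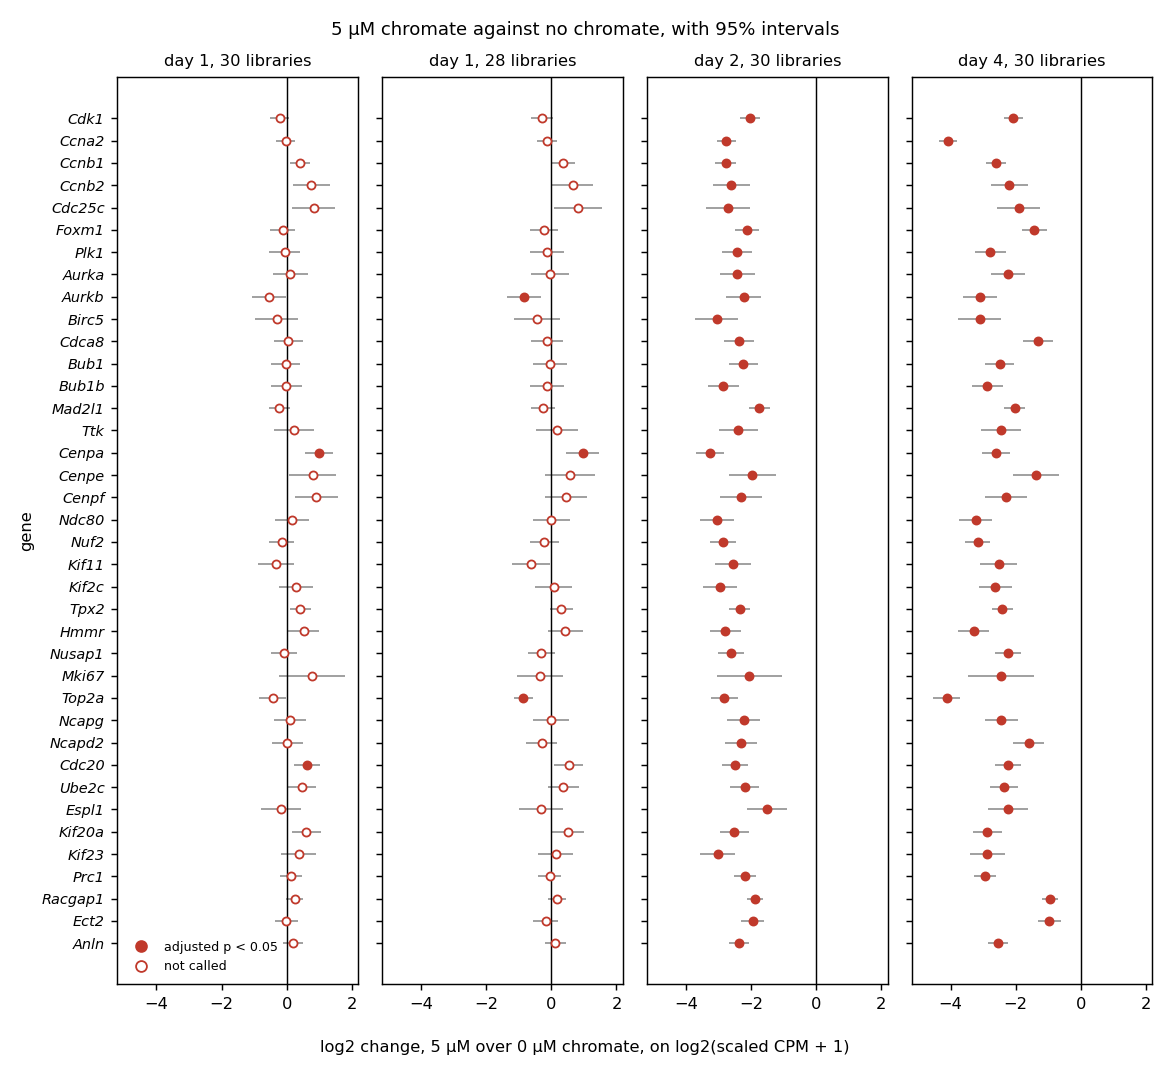
Change of each of the 38 genes at 5 µM over no chromate, as a difference of log2(scaled CPM + 1) with its 95% interval, on day 1 (30 and 28 libraries), day 2 and day 4. Filled points passed an adjusted p of 0.05: on day 1 these are 2 with 30 libraries and 3 with 28, and on days 2 and 4 all 38 lie left of 0 and passed.

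On day 4 the summed level at 5 µM was lower than on day 2, but its share of control was about the same, and the genes had spread apart. The sum was 154, 166 and 147 scaled CPM at 5 µM against 911, 877 and 897 in control cells, or 17.4% of control. All 38 genes were lower and without overlap, against backgrounds of 28.6% called lower and 30.1% parted downward. In the other direction, where 27.3% of all genes were called and 28.7% parted, there were 0 of the 38. The median log2 change was -2.46, against -0.01 over all genes, with a range from -4.12 to -0.95 that was wider than on day 2. The median gene was at 1.75% of its day 0 level at 5 µM, against 14.2% in control cells.

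Top2a and Ccna2 had the largest log2 changes on day 4, a measure that understates the change of low genes. As shares of the day 0 mean, Mki67 (0.137%) and Hmmr (0.615%) were the lowest of the 38 at 5 µM. Top2a had 5.32, 4.68 and 3.21 scaled CPM at 5 µM against 103, 74.7 and 100 in control cells (log2 change -4.12, SE 0.20, adjusted p = 6.9e-18). Ccna2 had 2.54, 2.66 and 1.98 scaled CPM at 5 µM against 56.1, 53.1 and 59.7 (-4.08, SE 0.14, adjusted p = 5.0e-22). In both genes the treated libraries lay more than an order of magnitude below every control library. Hmmr (-3.29), Ndc80 (-3.23), Nuf2 (-3.16), Birc5 (-3.11) and Aurkb (-3.09) followed.

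Several of these values rest on few reads. At 5 µM on day 4 the median member had 47 reads per library, against 363 in control cells, and 7 members had a library with 3 or fewer reads, 4 of them with a library at 0. Mki67 had 3, 1 and 0 reads (0.141, 0.0483 and 0 scaled CPM) at 5 µM, against 6.58, 3.55 and 4.78 scaled CPM in control cells (-2.46, SE 0.50, adjusted p = 8.1e-05). Birc5 had 0, 31 and 40 reads, a spread far wider than counting error. Cenpe, a kinetochore motor gene, had 1.93, 0.483 and 0.0584 scaled CPM at 5 µM against 4.27, 2.48 and 3.39 (-1.38, SE 0.35, adjusted p = 0.0012).

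Other members stood between these ends on day 4. Ccnb1 had 3.25, 4.2 and 4.61 scaled CPM at 5 µM against 28.5, 32.1 and 28.3 in control cells (-2.62, SE 0.15, adjusted p = 4.7e-16), and the groups were well separated. Cdk1 had 7.81, 8.69 and 7.53 scaled CPM at 5 µM against 39.7, 40 and 31.4 (-2.07, SE 0.15, adjusted p = 7.1e-14). Foxm1 had 7.39, 5.65 and 6.19 scaled CPM at 5 µM against 17.5, 17.5 and 21.7 (-1.43, SE 0.19, adjusted p = 6.6e-08), one of the smaller changes. The checkpoint gene Bub1b was at -2.87, Plk1 at -2.78, Kif23 at -2.87, Kif11 at -2.52, Anln at -2.54, Cenpa at -2.62, Ube2c at -2.35, Cdc20 at -2.25, Aurka at -2.25 and Ncapd2 at -1.60.

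Racgap1 and Ect2 fell least, and they act together. Racgap1 is the GTPase-activating subunit of centralspindlin and Ect2 the exchange factor it recruits to place the cleavage furrow. Racgap1 had 36.9, 44.1 and 37.4 scaled CPM at 5 µM against 77.2, 81.7 and 71.8 in control cells (-0.95, SE 0.12, adjusted p = 6.3e-08). Ect2 had 16.8, 11.5 and 12.6 scaled CPM at 5 µM against 22.7, 27.4 and 32.6 (-0.97, SE 0.17, adjusted p = 1.3e-05). Neither gene's groups overlapped. They stood at 12.2% and 7.03% of their day 0 means, the highest of the 38, and the next was Ncapd2 at 6.02%. Kif23, the motor partner of Racgap1 in centralspindlin, was at 1.37, 1.59 and 0.876 scaled CPM at 5 µM against 14.3, 15.8 and 16.5, so its fall was not of the same size.

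The change of the 5 µM effect between days 2 and 4 was tested in the same fit. It was lower for 3 genes, Ccna2 (-1.32, adjusted p = 7.2e-06), Top2a (-1.30, adjusted p = 0.0010) and Prc1 (-0.77, adjusted p = 0.016), which bundles central spindle microtubules, against a background of 11.2%. It was higher for 3 genes, Cdca8 (1.05, adjusted p = 0.015), a passenger complex subunit, Ect2 (0.98, adjusted p = 0.0030) and Racgap1 (0.93, adjusted p = 1.5e-04), against a background of 12.5%. With 28 libraries there were 4 of each, with Aurkb (-0.86, adjusted p = 0.045) and Foxm1 (0.69, adjusted p = 0.047) added. Both shares of the 38 were below the background, and the median was -0.05. Within 5 µM, 22 genes were lower on day 4 than on day 2 (background 20.3%) and 1 was higher (background 21.0%). The exception was Racgap1, with 36.9, 44.1 and 37.4 scaled CPM on day 4 against 27.6, 23.4 and 25.5 on day 2 (0.61, SE 0.12, adjusted p = 1.6e-04), and all its day 4 values lay above those of day 2.

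**Figure D4:**
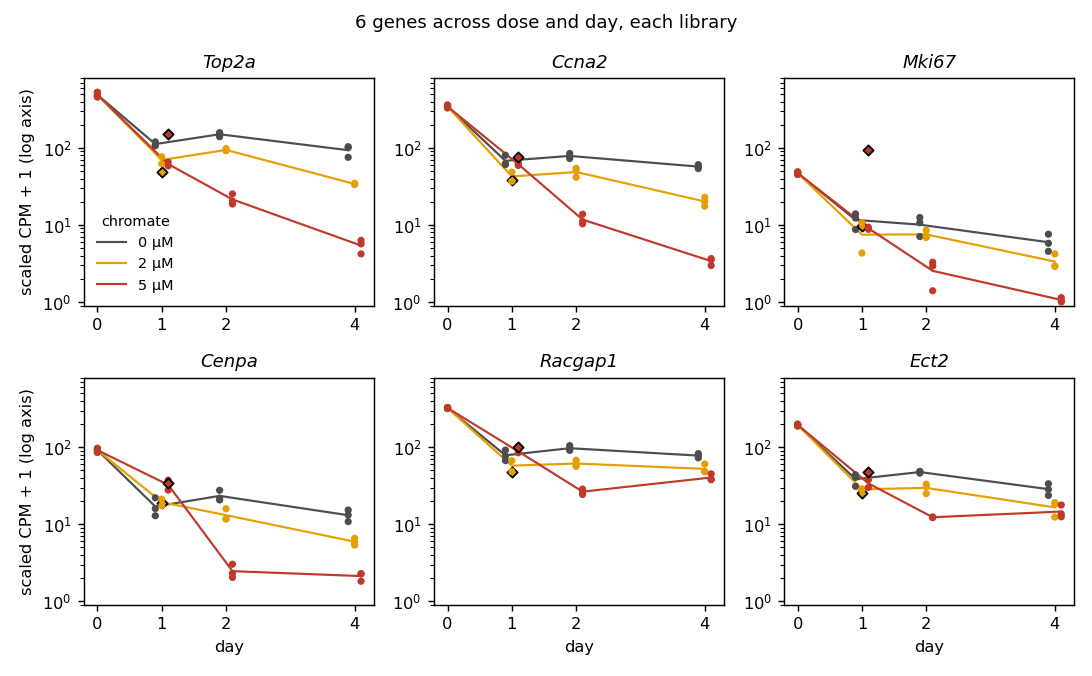
Scaled CPM + 1 (log axis) of 6 genes in each library by day, with lines through the means without the libraries that stood apart (diamonds) and colours for chromate dose. All lines start at the shared day 0 group. At 5 µM, Top2a and Ccna2 are lower on day 4 than on day 2, whereas Racgap1 is at 36.9 to 44.1 on day 4 against 23.4 to 27.6 on day 2.

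At 2 µM the set was lower than in control cells, and on days 2 and 4 by less than at 5 µM. Summed levels at 2 µM were 743, 969 and 835 scaled CPM on day 1, 968, 955 and 882 on day 2, and 431, 456 and 427 on day 4, against the control values given above. As shares of control these were 68.1% on day 1 (72.4% without the library that stood apart), 64.9% on day 2 and 49.0% on day 4. On none of the 3 days did the summed ranges of both groups overlap.

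On day 1, 10 genes were lower at 2 µM with 30 libraries (background 1.48%), namely Cdk1, Ccna2, Ccnb1, Foxm1, Aurkb, Mad2l1, Tpx2, Top2a, Prc1 and Racgap1, and 0 were higher (background 0.518%). The replicates parted downward in 21 genes (background 9.11%) and upward in 0 (background 6.47%). Of the 10 called, Ccna2, Mad2l1 and Top2a were lower with 28 libraries (background 0.672%). The count was 2 without control replicate 2 or 2 µM replicate 1, 4 without control replicate 3, 6 without control replicate 1 and 5 without 2 µM replicate 3. Mad2l1 had 16.1, 19.1 and 18.5 scaled CPM at 2 µM, the first from the library that stood apart, against 36.1, 38.2 and 29.1 in control cells. The groups did not overlap, and the log2 change was -0.90 (SE 0.16, adjusted p = 9.6e-04) with 30 libraries and -0.83 (adjusted p = 0.013) with 28.

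On day 2, 3 genes were lower at 2 µM, Mad2l1 (-0.76, adjusted p = 0.014), Ccna2 (-0.70, adjusted p = 0.011) and Racgap1 (-0.66, adjusted p = 0.0047), against a background of 0.247%. Every log2 change was negative, with a median of -0.61. The replicates parted without overlap in 37 of 38 genes, all but Mki67, where 12.0% of all genes did so, and in 0 upward, where 9.15% did. The count was 6 with 28 libraries (background 0.533%), where Cdk1, Ect2 and Top2a joined, and 28 when only the 2 groups compared entered the fit. It was 1 without control replicate 1 or 2, or 2 µM replicate 2 or 3. Ccna2 had 53.4, 49.2 and 40.7 scaled CPM at 2 µM against 77.5, 84 and 72 in control cells.

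On day 4, 28 genes were lower at 2 µM (background 3.74%) and 0 were higher (background 5.11%), with a median log2 change of -0.93. The replicates parted downward in 34 genes (background 11.5%). Ccna2 and Top2a again had the largest log2 changes. Ccna2 had 21.9, 19.2 and 16.5 scaled CPM at 2 µM against 56.1, 53.1 and 59.7 in control cells (-1.51, SE 0.14, adjusted p = 2.8e-09). Top2a had 33.8, 32.6 and 32.8 scaled CPM at 2 µM against 103, 74.7 and 100 (-1.45, SE 0.20, adjusted p = 6.6e-06), and neither gene's groups overlapped. Kif23 (-1.38), Nuf2 (-1.35), Cdc25c (-1.32) and Ncapg (-1.32) followed. The 10 that did not pass were Ccnb2, Aurkb, Birc5, Ttk, Cenpe, Cenpf, Mki67, Ncapd2, Ube2c and Espl1, and the smallest change was that of Cenpf, at 5, 5.74 and 5.81 scaled CPM at 2 µM against 8.79, 5.98 and 10.4 (-0.50, SE 0.32, adjusted p = 0.38). Racgap1 was also lower at 2 µM, with a log2 change of -0.58 (SE 0.12, adjusted p = 0.0018). From day 2 to day 4 at 2 µM, 33 genes were lower (background 13.1%), and Racgap1 was among the 5 not called (-0.24, SE 0.12, adjusted p = 0.17).

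**Figure D5:**
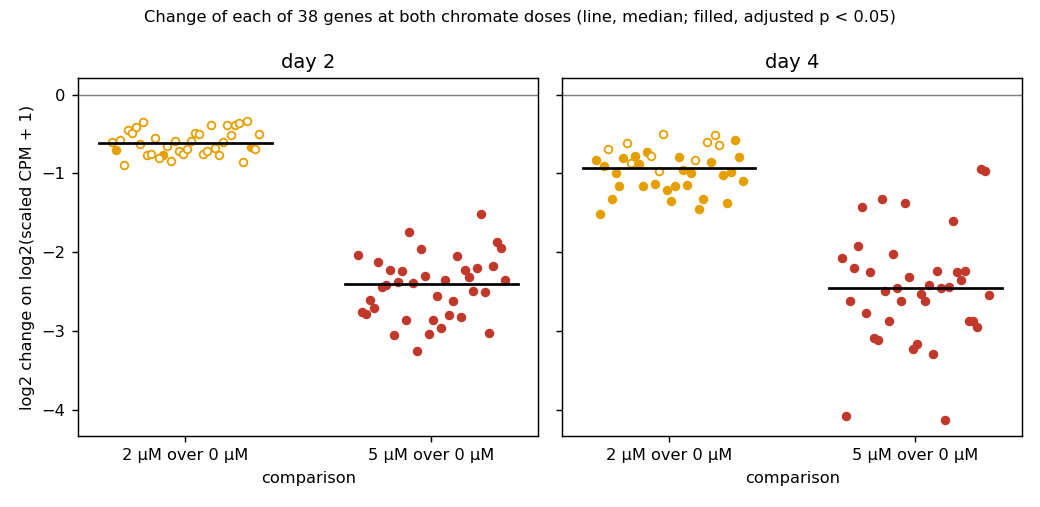
Change of each of the 38 genes as a difference of log2(scaled CPM + 1) at 2 and 5 µM over no chromate, on days 2 and 4, with lines at the medians and filled points for an adjusted p under 0.05. Medians are -0.61 and -2.41 on day 2 and -0.93 and -2.46 on day 4, and both doses share the control libraries.

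The doses were also compared with each other. On day 1 the order was unlike that of later days, with 16 genes higher at 5 than at 2 µM (background 1.29%) and 0 lower (background 4.25%), and with 25 parted upward (background 7.45%). The count of 16 became 7 when 5 µM replicate 3 was left out and 9 without 2 µM replicate 1. With 28 libraries 4 were higher, Ccnb1 (0.92, adjusted p = 0.0028), Tpx2 (0.81, adjusted p = 0.0085), Racgap1 (0.63, adjusted p = 0.0094) and Cdc20 (0.90, adjusted p = 0.028), against a background of 0.456%. Ccnb1 had 57.4 to 67 scaled CPM at 5 µM against 28 to 35.5 at 2 µM, and no values overlapped. On day 2 all 38 were lower at 5 than at 2 µM (background 8.13%), with changes from -2.48 for Kif2c to -0.98 for Mad2l1. On day 4, 34 were lower (background 24.8%), and Cdc25c, Foxm1, Cenpe and Ect2 did not pass. Ect2 had 16.8, 11.5 and 12.6 scaled CPM at 5 µM against 17.2, 18.1 and 11.4 at 2 µM, and these overlapped (-0.17, SE 0.17, adjusted p = 0.44).

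Markers of other cell types were low in the libraries of days 2 and 4 but not all at 0. On day 4 the summed adipocyte, T cell, B and plasma cell, endothelial and erythroid markers reached at most 1.21, 0.565, 0, 0.701 and 2.33 scaled CPM at 5 µM, against 0.861, 2.21, 0.352, 0.696 and 0.65 in control cells. The lung epithelium markers summed to 6.25 to 10.5 scaled CPM at 5 µM on day 4 against 9.75 to 11.7 in control cells. On day 2 they summed to 4.04 to 5.2 against 3.3 to 6.41. These sums mostly follow 1 gene, Cdh1, which reached 13.07 scaled CPM in the 28 libraries. No other lung marker exceeded 0.3601 there. The myeloid markers summed to 3.25 to 4.9 scaled CPM at 5 µM on day 4 against 0.0507 to 0.836 in control cells, without overlap, and to 0.394 to 1.23 against 0.167 to 0.914 on day 2. In 5 µM replicate 3 on day 4, Cd68 alone made up the myeloid sum of 4.904 scaled CPM. No other myeloid marker exceeded 0.7218 scaled CPM in any of the 28 libraries, so the myeloid sum mostly follows 1 gene. The part of the myeloid markers in the day 4 result was not tested. The 6 muscle markers summed to 4320 to 5170 scaled CPM at 5 µM on day 4 against 11600 to 12800 in control cells, and to 4120 to 4460 against 8860 to 9370 on day 2. On day 1 they summed to 1360 to 1630 scaled CPM at 5 µM against 2980 to 3190 in control cells, when the sums of the mitotic genes overlapped. The lowest of these 5 µM sums was from the library that stood apart, and replicates 1 and 2 had 1461 and 1633. In the 28 libraries Acta1, Des, Myh3 and Myog reached 6205, 3507, 2269 and 1253 scaled CPM, and Myod1 and Myf5 199 and 141. The last pair thus weigh less in the muscle sum, and results per marker are not given here. The summed muscle markers were lower at 5 µM on all 3 days and the mitotic genes on days 2 and 4, and the part of the one in the other was not tested.

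Other genes of these pathways, 122 in all, were counted in the same fit. The shares of all genes called lower and higher at 5 µM were 9.41% and 4.29% on day 1, 13.4% and 10.2% on day 2, and 28.6% and 27.3% on day 4. Of 20 further spindle and cytokinesis genes, 18 were lower at 5 µM on day 2 and 19 on day 4, with 1 higher on day 4, Numa1, which focuses spindle poles. Shcbp1, a binding partner of centralspindlin, had 0.603 ± 0.362 scaled CPM at 5 µM against 13.9 ± 2.36 in control cells on day 4 (SD, n = 3 each; log2 change -3.23, limma adjusted p = 3.1e-12). Of 33 further kinetochore and centromere genes, 22 were lower and 1 higher on day 2, and 19 were lower and 3 higher on day 4. Kntc1, of the outer kinetochore, had -3.15 and Spc25, an NDC80 complex subunit, -2.63 on day 4, whereas Zwint, Zw10 and Mis18a were higher by 1.12, 0.77 and 1.08. All 6 further condensin genes were lower on both days. On day 1, 2 of the 33, 0 of the 20 and 1 of the 6 (3 with 28 libraries) were lower, of which the first pair of counts is at or below the share of all genes, and Ckap2, a microtubule stabiliser, was higher (1.01, adjusted p = 0.0049). With 28 libraries 1 of the 20 spindle and cytokinesis genes was called higher on day 1, and their highest log2 change was 0.854.

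Of 17 further regulators of mitotic entry, 16 were lower and 1 was higher on both day 2 and day 4. On day 1, 3 were lower and 1 was higher with 30 libraries, and 4 were lower and 1 was higher with 28. The exception was Wee1, the kinase that holds CDK1 inactive. It had 37.2 ± 1.72 scaled CPM at 5 µM against 22.8 ± 5.56 in control cells on day 1 (SD, n = 3 each; log2 change 0.71, limma adjusted p = 0.0011) and 35.3 against 19.0 on day 2 (0.87, adjusted p = 3.9e-05). The day 1 values include the 5 µM library that stood apart. With 28 libraries the highest log2 change of these 17 genes on day 1 was 0.747. On day 4 Wee1 had 111.5 ± 5.95 against 11.4 ± 1.77 (3.19, adjusted p = 2.5e-18). Pbk, a mitotic kinase, moved the other way, with -3.59 on day 4.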

How the data were processed

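Total RNA from C2C12 cells was taken with TRIzol and made into libraries with an Illumina TruSeq RNA kit, per the labels' protocols. The deposited values are a signal that the labels call CPM, in 1 table of 30 columns. Dividing a library's values by its smallest step gave whole reads for 100% of values (tolerance 0.02 of a read). Column totals ran from 892246 to 1079916 rather than to a common sum, which shows an added scaling. The aligner, counter, genome build and type of scaling were not stated in any source used here.

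The fit used the 12946 genes that reached 1 scaled CPM in 3 or more libraries. It was made with limma 3.58.1 (R 4.3.3) on log2(scaled CPM + 1), with 10 group means over the 30 libraries, a mean-variance trend and 20 residual degrees of freedom. Calls use a Benjamini-Hochberg adjusted p below 0.05 over all genes. The test was tried on simulated data. Alternatives were median-of-ratios scaling, no filter, a filter of 5, a pseudocount of 0.25, a replicate term, only the groups compared, each replicate left out, both libraries that stood apart left out (28 libraries), and edgeR 4.0.16 (quasi-likelihood) on recovered reads. The last with 28 libraries, and median-of-ratios scaling with 28, were added after seeing the data.

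The members and gene lists were chosen with earlier results of these data known. Named genes were 20 members set by role, the members with the largest and smallest change or an unlike call in each comparison, and up to 4 called genes of each other list with the largest change. Other genes of those lists that went against the rest, and the promoters printed, were picked after their values were seen. Of the 211 listed genes, 210 were in the table, 6 under an older symbol. Mean levels carry the SD of 3 replicates.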

Additional observations from a re-analysis of the deposited data

Results flagged for a closer look

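The 5 µM effect, taken as the log2 change over control cells of the same day, differed between days by a test of the difference itself in limma. Between day 1 and day 2 it was lower for 37 of the 38 genes at an adjusted p below 0.05, with 30 libraries and with 28, against 2.76% and 2.59% of all genes. Between day 2 and day 4 it was lower for 3 genes (Ccna2, Top2a and Prc1) and higher for 3 genes (Cdca8, Ect2 and Racgap1), while 11.2% of all genes were lower and 12.5% higher, so the count of members lay below the share of all genes in each direction. Neighbouring tests share the day 2 libraries.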

How the results depend on the processing

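Of the counts of called genes, those at 5 µM against control on days 2 and 4 were 38 under every alternative run, and so were the 3 control counts against day 0. The counts that moved by over 1.5 times were of few genes or of day 1. Control day 2 over day 1, higher, was 1, with 4 from only the groups compared, 2 in each of the 3 fits with 28 libraries, and 0 to 3 with 1 replicate left out. For 5 µM on day 1, lower was 0, with 2 in each fit with 28 libraries and 0 to 2 with 1 replicate left out. Higher was 2, with 6 from only the groups compared, 6 by edgeR, 1 in each fit with 28 libraries and 1 to 4 with 1 replicate left out. For 2 µM, lower was 10 on day 1, with 5 without a filter, 2 from only the groups compared, 3 in each fit with 28 libraries and 2 to 11 with 1 replicate left out. On day 2 it was 3, with 6 at a filter of 5, 28 from only the groups compared, 6, 10 (edgeR) and 6 (median-of-ratios) with 28 libraries, and 1 to 2 with 1 replicate left out. For 5 over 2 µM on day 1, higher was 16, with 7 from only the groups compared, 4, 5 (edgeR) and 4 (median-of-ratios) with 28 libraries, and 7 to 17 with 1 replicate left out. The change of effect from day 2 to day 4, lower, was 3, with 5 at a pseudocount of 0.25, 5 by edgeR and 6 by edgeR with 28 libraries. The fit shares its estimate of the spread per gene over all groups, so libraries outside a comparison also enter its p-values. The 2 µM count on day 2 moved from 3 to 6 with 28 libraries, although its own groups kept all their libraries. The cause of these shifts was not tested.

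Signs that turned were all of day 1 changes at 5 µM that had not passed. With 28 libraries (limma, edgeR and median-of-ratios in turn) Aurka had -0.035, -0.067 and -0.033, Mki67 -0.336, -0.392 and -0.334, and Ncapd2 -0.297, -0.299 and -0.295, while Ndc80 had 0 with limma and Bub1b 0.001 by edgeR on 30. With 1 replicate left out the values ran from -0.14 to 0.10 for Ccna2, -0.26 to 0.11 for Plk1, -0.13 to 0.279 for Aurka, -0.124 to 0.085 for Bub1b, 0 to 0.41 for Ndc80, -0.34 to 1.37 for Mki67 and -0.30 to 0.30 for Ncapd2. Over all 38 members, day 1 log2 changes below 0 at 5 µM over control numbered 15 with 30 libraries and 21 with 28. They numbered 35 and 34 at 2 µM over control, and 0 and 3 at 5 over 2 µM.

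Replicate numbers did not pair the samples: same-numbered libraries had a median correlation of their deviations of 0.01 (-0.23 to 0.13), and 35.2% correlated best with their own number. Adding the replicate block changed 2 counts, with 26 in place of 25 for control day 4 under day 2 and 9 in place of 10 for 2 µM on day 1, and no other call among the results given. Median-of-ratios scaling moved the median of all genes by less than 0.1 (log2) in every comparison. Depth limited the day 4 values at 5 µM, where the median member had 47 reads per library.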

Other observations

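Genes of the spindle checkpoint and of sister chromatid cohesion changed in both directions at 5 µM on day 4. Of 16 further checkpoint and cohesion genes, 8 were lower and 6 were higher at an adjusted p below 0.05 by limma, against 28.6% and 27.3% of all genes. Those higher were Wapl (0.48), Smc3 (0.41), Bub3 (0.36), Stag2 (0.34), Pds5a (0.33) and Rad21 (0.28), which encode cohesin subunits, cohesin regulators and, for Bub3, a checkpoint protein that also works outside mitosis. Those lower included Mad1l1 (-1.90), Sgol2a (-1.81), Cdca5 (-1.63) and Pttg1, the securin that holds separase inactive (-1.32). On day 2, 7 were lower and 1 was higher, against 13.4% and 10.2% of all genes.

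Among 16 core subunits and partners of the anaphase-promoting complex, 3 were lower on day 2, near the 13.4% of all genes, and 7 on day 4, where 28.6% of all genes were lower. In the other direction 0 were called on day 2 and on day 4, and 1 was on day 4 with 28 libraries. Their median log2 change on day 4 was -0.17, and Anapc5 had 122.5 ± 7.23 scaled CPM at 5 µM against 226.4 ± 27.6 in control cells (SD, n = 3 each; -0.88, limma adjusted p = 5.2e-11).

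Among 14 E2F and MuvB regulators, E2f7 and E2f2 were the ones lower at 5 µM on day 1, when 9.41% of all genes were lower. E2f2 had 29.1 ± 8.29 scaled CPM at 5 µM against 68.99 ± 9.46 in control cells (SD, n = 3 each; -1.24, limma adjusted p = 3.0e-08), and E2f7 had 4.90 ± 2.77 against 14.2 ± 0.633 (-1.47, adjusted p = 9.8e-04). These values include the 5 µM library that stood apart. With 28 libraries 2 of the 14 were also lower on day 1, and the lowest log2 change of the list was -1.827. On day 4, 6 of the 14 were lower, against 28.6% of all genes. Higher were 2 of the 14, Rbbp4 (0.41) and Lin54 (0.53), a smaller share than the 27.3% of all genes.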
